A study of Mus musculus with 32 samples.

Results

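The cytosolic ribosomal protein genes of the postnatal mouse retina were followed across 8 groups of 4 arrays each, 32 arrays in all. A gene was taken when its symbol began with Rpl or Rps and a number, or was Rpsa, Rplp0, Rplp1 or Rplp2. Ribosomal S6 kinases (4 symbols) and pseudogenes (2 symbols) were left out, and the brightest of a gene's probe sets, by its mean over all arrays, stood for the gene. This gave 47 of the 12393 genes that a probe set with a single gene symbol represented: 26 of the large subunit, 21 of the small subunit, and among these 5 paralogs (Rpl22l1, Rpl39l, Rpl3l, Rpl7l1 and Rps27l). The rule itself used no measured value beyond the brightness of the probe set. A further 30 symbols, among them Rplp1, Rpl5, Rpl10 and Rpl24, were carried only by probe sets that list other genes as well, and were not measured by name.

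The study compared whole retinas of wild type (wt) C57BL/6 mice with retinas of rd1/le mice on 4 days after birth (P2, P4, P6 and P8). The rd1/le mice are homozygous for the linked retinal degeneration 1 and light ear mutations on the C57BL/6 background, and the rd1 mutation inactivates Pde6b, which encodes a catalytic subunit of the phosphodiesterase that breaks down cGMP in rods. Rods of these mice are lost in the weeks after birth. Each array was hybridised with RNA pooled from 8 to 14 retinas. The sources used here do not say whether the 4 samples of a group came from separate litters, so the p-values measure the spread between these samples. All levels are log2 values, in which a difference of 1 is a doubling.

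A cytosolic ribosome joins a small subunit, which reads the messenger RNA, to a large subunit, which forms the peptide bond. Each subunit assembles from ribosomal RNA and a large set of proteins that are made in matched amounts, and their messenger RNAs are among the most abundant of any cell. Dividing cells make many ribosomes, whereas cells that leave the cell cycle need fewer. In the mouse retina, progenitors are still dividing at birth and give rise mainly to rods, bipolar cells and Mueller glia during the first postnatal week. Most ribosomal protein messenger RNAs begin with a 5 prime terminal oligopyrimidine tract, a run of C and T (U in the RNA) through which translation of the whole family is controlled together.

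Ribosomal protein genes are shown first by the bases at which their transcripts start, because this run is the feature that defines the family at the RNA level. RefSeq starts on build GRCm38.p6 matched 42 of the 47 genes, with 50 starts. The 30 bases printed for each gene hold 15 before and 15 after the annotated start, read 5′ to 3′ on the strand of the gene, and capitals mark the longest run of C or T where it holds 6 or more bases. The first 6 genes fell from P2 to P8 in both genotypes and have a run. Rplp0 and Rps3a1 fell in both and have none. Rpl38 and Rpl4 passed no test of that change and have a run, which in Rpl4 lies wholly before the annotated start.
Rps10 (chr17:27635230-27635259, minus strand): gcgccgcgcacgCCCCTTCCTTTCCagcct
Rps18 (chr17:33955651-33955680, minus strand): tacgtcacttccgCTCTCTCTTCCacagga
Rpl35 (chr2:39005117-39005146, minus strand): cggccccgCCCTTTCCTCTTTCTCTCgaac
Rplp2 (chr7:141447636-141447665, plus strand): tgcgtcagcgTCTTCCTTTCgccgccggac
Rps6 (chr4:86857353-86857382, minus strand): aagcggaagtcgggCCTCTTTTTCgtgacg
Rps26 (chr10:128626492-128626521, minus strand): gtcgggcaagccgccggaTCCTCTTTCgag
Rplp0 (chr5:115559452-115559481, plus strand): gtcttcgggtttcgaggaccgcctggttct
Rps3a1 (chr3:86142654-86142683, minus strand): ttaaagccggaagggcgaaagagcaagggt
Rpl38 (chr11:114668565-114668594, plus strand): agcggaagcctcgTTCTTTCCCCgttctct
Rpl4 (chr9:64173372-64173401, plus strand): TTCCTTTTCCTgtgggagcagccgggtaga

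A run of 6 or more pyrimidines lay within the 30 bases around a start in 27 of the 42 genes (64.3%). This was so for 8833 of the 27025 genes with a promoter in the same annotation (32.7%) and for 32.4% of the protein-coding genes. A run wholly before the start, as in Rpl4, was counted as well, so this is no count of tracts in the RNA. The letters CCGGAAG, the core to which transcription factors of the ETS family bind, were found on either strand in the 300 bases around a start of 21 of the 42 genes (50%), against 9.93% of all genes and 12.9% of the protein-coding genes. Of the 14 genes that fell in both genotypes, 10 had the run and 8 had CCGGAAG. Of the other 28 matched genes, 17 had the run and 13 had CCGGAAG. These letter matches describe the annotated starts and are not shown to be used in the retina.

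Quantile normalization had brought the deposited arrays to a common distribution, so their medians, between 6.54 and 6.76, do not measure quality. Correlations within groups were 0.981 to 0.998, but 3 features of single arrays touch the results below. The control probe sets for 18S ribosomal RNA lay between 3.57 and 5.45 on every P2 and P8 array and ran from 4.37 to 9.80 at P4 and P6. The arrays labelled rd1 P2 replicates 1 and 4 had a Gapdh 3 prime signal 1.54 and 1.57 above the 5 prime signal, against 0.04 to 0.74 on the other 30 arrays. Pde6b did not separate the P2 labels: it was at 6.96, 7.19, 9.42 and 9.76 on the arrays labelled wt P2 and at 7.00, 9.18, 9.24 and 6.84 on those labelled rd1 P2. From P4 to P8 every rd1 array lay below every wt array of its age. Results that involve P2 are therefore given for the arrays labelled wt or rd1.

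Ribosomal protein genes were read from some of the brightest probe sets of the array, although brightness also depends on the probes themselves. Of the 47 probe sets, 36 stood among the 1000 brightest of 22626, up to that of Rps29, a zinc-binding protein of the small subunit, at a mean of 14.74. The other 11 had means under 10, namely Rpl12, Rpl14, Rpl27a, Rpl37, Rpl39, Rps25, Rps27, Rps6 and the paralogs Rpl7l1, Rpl3l and Rpl39l. Each of the 8 that are not paralogs also had a brighter probe set that lists other genes as well. Such probe sets, with means of 14.54 for Rps6 and 13.09 for Rpl12, were not read by name. Values of these 8 genes therefore hold for their dim probe sets only. Rpl39l, at a mean of 2.70, and Rpl3l lay within the range of the hybridisation controls that should give no signal (1.97 to 4.77).

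From P2 to P8 many ribosomal protein genes fell in wt retina. Of the 47, 20 were lower at P8 and none was higher (limma, adjusted p under 0.05), 42.6% of the genes against 18.7% of all probe sets that were lower and 16.9% that were higher. The median difference was -0.26, against -0.06 over all probe sets, and 40 of the 47 differences were below 0. Among the 1000 brightest probe sets 24.8% were lower and 28.3% higher, with a median of 0.02, while of the 36 bright ribosomal protein genes 18 were lower and none higher. For 22 genes every P8 array lay below every P2 array, against 25.1% of all probe sets. In bulk tissue, fewer cells of a type and less RNA per cell cannot be told apart.

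**Figure D1:**
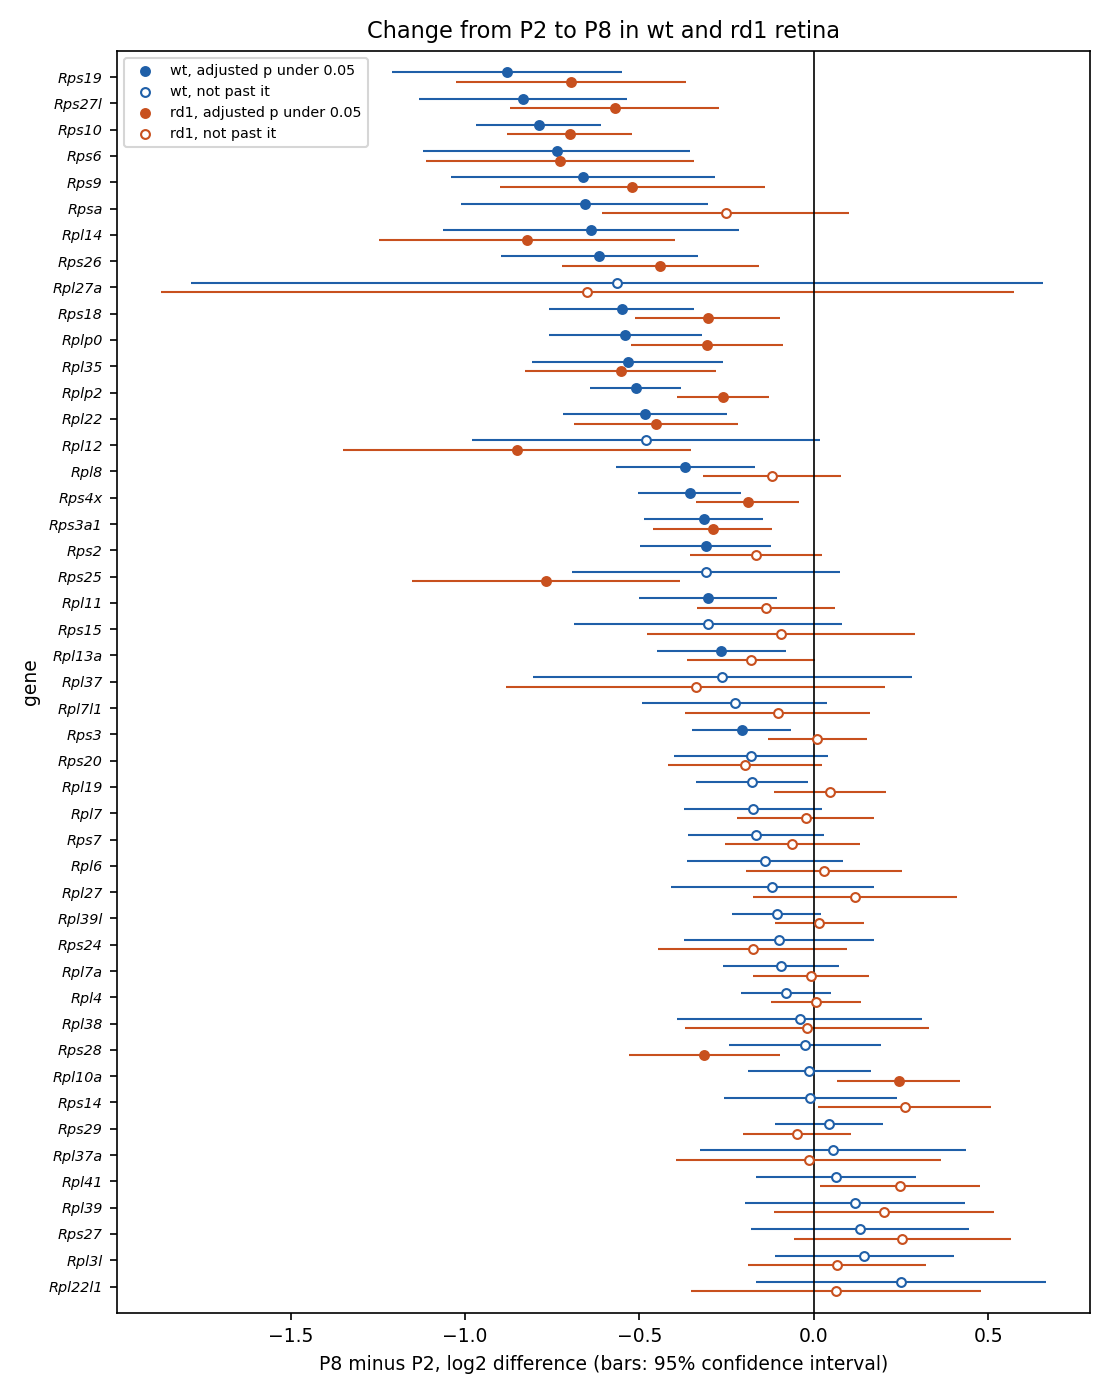
Change from P2 to P8 of each of the 47 genes in wt (blue) and rd1 (orange) retina, as the log2 difference of the group means with its 95% confidence interval. Filled points passed an adjusted p under 0.05. Genes are ordered by the wt difference, from Rps19 (-0.88) to Rpl22l1 (0.25), and only Rpl10a in rd1 has a filled point above 0.

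Among ribosomal proteins called in wt, the largest falls were in the small subunit. Rps19, a protein of the small subunit head whose human counterpart is mutated in Diamond-Blackfan anaemia, was at 12.87, 12.85, 12.87 and 12.60 on the wt P2 arrays and at 12.14, 11.99, 11.88 and 11.65 on the wt P8 arrays. Its P8 level was 54.3% of the P2 level (log2 difference -0.88, standard error 0.16, adjusted p = 5.88e-05). The P2 and P8 values stood well apart, with the P4 and P6 means between them at 12.71 ± 0.20 and 12.40 ± 0.11 (SD, n = 4). Rps10, which lies at the messenger RNA entry side of the small subunit, was at 13.89, 13.94, 14.07 and 14.16 at P2 and at 13.28, 13.35, 13.23 and 13.05 at P8. It kept within 13.72 to 13.97 at P4 and P6, so nearly all of its fall came at the last step (difference -0.79, standard error 0.09, adjusted p = 1.95e-08).

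Rps6, the protein that S6 kinases phosphorylate when growth signals are active, fell from 7.78, 7.50, 7.05 and 7.27 at P2 to 6.83, 6.79, 6.75 and 6.29 at P8 on a dim probe set (difference -0.74, standard error 0.19, adjusted p = 0.00232). Rpsa, which is also known as a laminin receptor, was at 12.06, 11.94, 12.63 and 12.61 at P2 and at 11.68, 11.79, 11.67 and 11.48 at P8 (difference -0.66, standard error 0.17, adjusted p = 0.00316). The P2 arrays of Rpsa fell into a lower pair (replicates 1 and 2) and a higher pair (replicates 3 and 4), but all 4 lay above the P8 arrays. Pde6b divided the same wt P2 arrays, at 6.96 and 7.19 against 9.42 and 9.76. The reason for this division was not tested. Rps9 fell by 0.66 (standard error 0.19, adjusted p = 0.00541), Rps26, which touches the messenger RNA near its exit, by 0.62 (standard error 0.14, adjusted p = 0.000671) and Rps18 of the head by 0.55 (standard error 0.10, adjusted p = 6.52e-05). Rps4x, Rps3a1, Rps2 and Rps3 fell by 0.36, 0.32, 0.31 and 0.21, which brought the small subunit to 11 lower of 20, the paralog Rps27l not counted.

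The large subunit gave 8 lower genes of 22. The stalk, which recruits the elongation factors, was represented by Rplp0 and Rplp2. Rplp2 was at 14.32, 14.29, 14.36 and 14.33 on the wt P2 arrays and at 13.89, 13.85, 13.84 and 13.68 on the wt P8 arrays, with almost no spread at P2 (difference -0.51, standard error 0.06, adjusted p = 1.74e-07). Rplp0, its anchor on the large subunit, was at 14.32, 14.23, 14.61 and 14.49 at P2 and at 14.00, 13.90, 13.79 and 13.79 at P8 (difference -0.54, standard error 0.11, adjusted p = 0.000153). Rpl35, a protein near the exit of the peptide tunnel, fell by 0.53 (standard error 0.13, adjusted p = 0.00204), Rpl22 by 0.48, Rpl8 by 0.37, Rpl11, which binds Mdm2 when ribosome assembly is disturbed, by 0.30, and Rpl13a by 0.27. Rpl14, on a dim probe set, fell by 0.64 (standard error 0.21, adjusted p = 0.0158).

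Other ribosomal protein genes showed no difference past the test. Rps29 was at 14.76, 14.93, 14.62 and 14.80 at wt P2 and at 14.84, 14.81, 14.84 and 14.79 at wt P8, a difference of 0.04 with a 95% interval of -0.11 to 0.20. Rpl4 differed by -0.08 (interval -0.21 to 0.05), and Rpl10a by -0.01 (-0.19 to 0.16). For Rps29 and Rpl10a all 4 P8 arrays lay within the range of the P2 arrays. Rpl38, which mouse embryos need for translation of a subset of Hox messenger RNAs, differed by -0.04 (-0.39 to 0.31). The wt P8 level as a share of the P2 level was thus 103% for Rps29, beside 54.3% for Rps19.

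**Figure D2:**
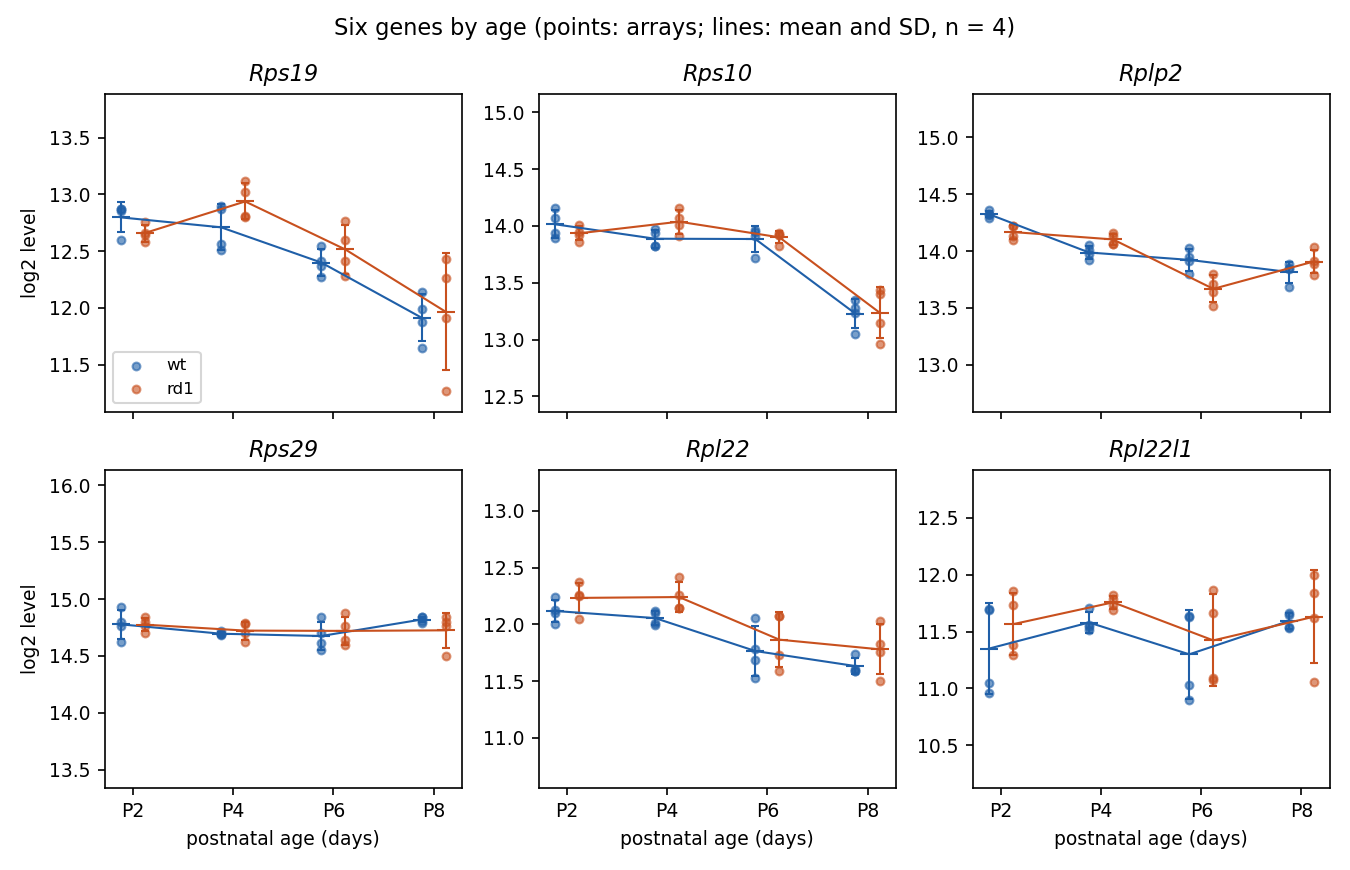
Log2 level by postnatal age of 6 genes in wt (blue) and rd1 (orange) retina, with a point per array and the mean and SD of the 4 arrays of each group. Rps19 and Rps10 are lowest at P8, Rplp2 has its lowest rd1 values at P6, Rps29 stays near 14.74 throughout, and Rpl22 declines while Rpl22l1 does not. Every panel spans 2.8 log2 units.

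In rd1 retina the same comparison gave 17 lower genes and 1 higher gene of 47, 36.2% lower against 16.6% of all probe sets that were lower and 16.4% that were higher. The median difference was -0.17 against 0.02 over all probe sets. Of the 1000 brightest probe sets 23.4% were lower, and of the 36 bright ribosomal protein genes 13 (36.1%). For 12 genes every rd1 P8 array lay below every array labelled rd1 P2, against 14.3% of all probe sets. The count depended on the P2 arrays and on the shared estimate of spread: without the arrays labelled rd1 P2 replicates 1 and 4 it was 10, and in a fit of the rd1 P2 and P8 arrays alone it was 11, all lower.

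Rps10 was at 13.92, 13.95, 13.86 and 14.01 on the arrays labelled rd1 P2 and at 13.40, 13.15, 13.44 and 12.96 on the rd1 P8 arrays, again without overlap (difference -0.70, standard error 0.09, adjusted p = 1.85e-07). Rps19 went from 12.58, 12.64, 12.76 and 12.66 to 12.43, 11.91, 12.26 and 11.27 (difference -0.70, standard error 0.16, adjusted p = 0.000962). The rd1 P8 values of Rps19 spread over more than 1 unit, with replicate 4 lowest. Replicate 4 of rd1 P8 was low in the family at large: only 4 of the 36 bright genes lay above their group mean on it, against 34 and 35 on replicates 1 and 3, and it had the lowest 18S signal (3.57). Without that array the difference of Rps19 was -0.46 and still passed the test.

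The other large falls in rd1 were on dim probe sets, of genes whose brighter probe sets list other genes as well and were not read. Rpl12, which sits at the base of the stalk, went from 5.98, 6.04, 5.70 and 5.73 to 5.84, 4.97, 4.67 and 4.56, and the groups overlapped (difference -0.85, standard error 0.24, adjusted p = 0.00672). The 4.67 and 4.56 of Rpl12 lie within the range of the no-signal controls, which leaves the size of its fall uncertain. Rpl14 fell by 0.82 (standard error 0.21, adjusted p = 0.0023), Rps25, known for its part in initiation at internal ribosome entry sites, by 0.77 (standard error 0.19, adjusted p = 0.00165) and Rps6 by 0.73 (standard error 0.19, adjusted p = 0.00271). The single gene that rose was Rpl10a, at 13.39, 13.38, 13.51 and 13.44 at P2 and at 13.72, 13.71, 13.79 and 13.47 at P8 (difference 0.24, standard error 0.09, adjusted p = 0.0296). Its lowest P8 array, replicate 4, lay within the P2 range.

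The wt and rd1 comparisons share no arrays, but both use the same estimate of each gene's spread, drawn from all 32 arrays. Both also rest on P2 labels that Pde6b did not separate. Lower in both were 14 genes, which is 70% of the wt list and 82.4% of the rd1 list. Of the 47 genes this is 29.8%, against 13% of all probe sets. They were Rps4x, Rps6, Rps9, Rps10, Rps18, Rps19, Rps26, Rps27l and Rps3a1 of the small subunit and Rplp0, Rplp2, Rpl14, Rpl22 and Rpl35 of the large. For 11 genes (23.4%) the P8 arrays lay below the P2 arrays without overlap in both genotypes, against 11.4% of all probe sets. Neither comparison called 23 genes. The difference between the P2 to P8 changes of rd1 and wt was tested for each gene and passed for none, against 0.0575% of all probe sets in either direction. The median of that difference was 0.12 over the 47 genes and 0.06 over all probe sets. At an unadjusted p under 0.05 there were 3 genes (6.38%, against 7.52% of all probe sets), each with the smaller fall or the rise in rd1: Rplp2 (0.25, 95% interval 0.07 to 0.44), Rpl10a (0.26, 0.01 to 0.51) and Rps3 (0.22, 0.02 to 0.42). Rps3 was called in wt only, yet its difference between genotypes did not pass after adjustment (adjusted p = 0.635).

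**Figure D3:**
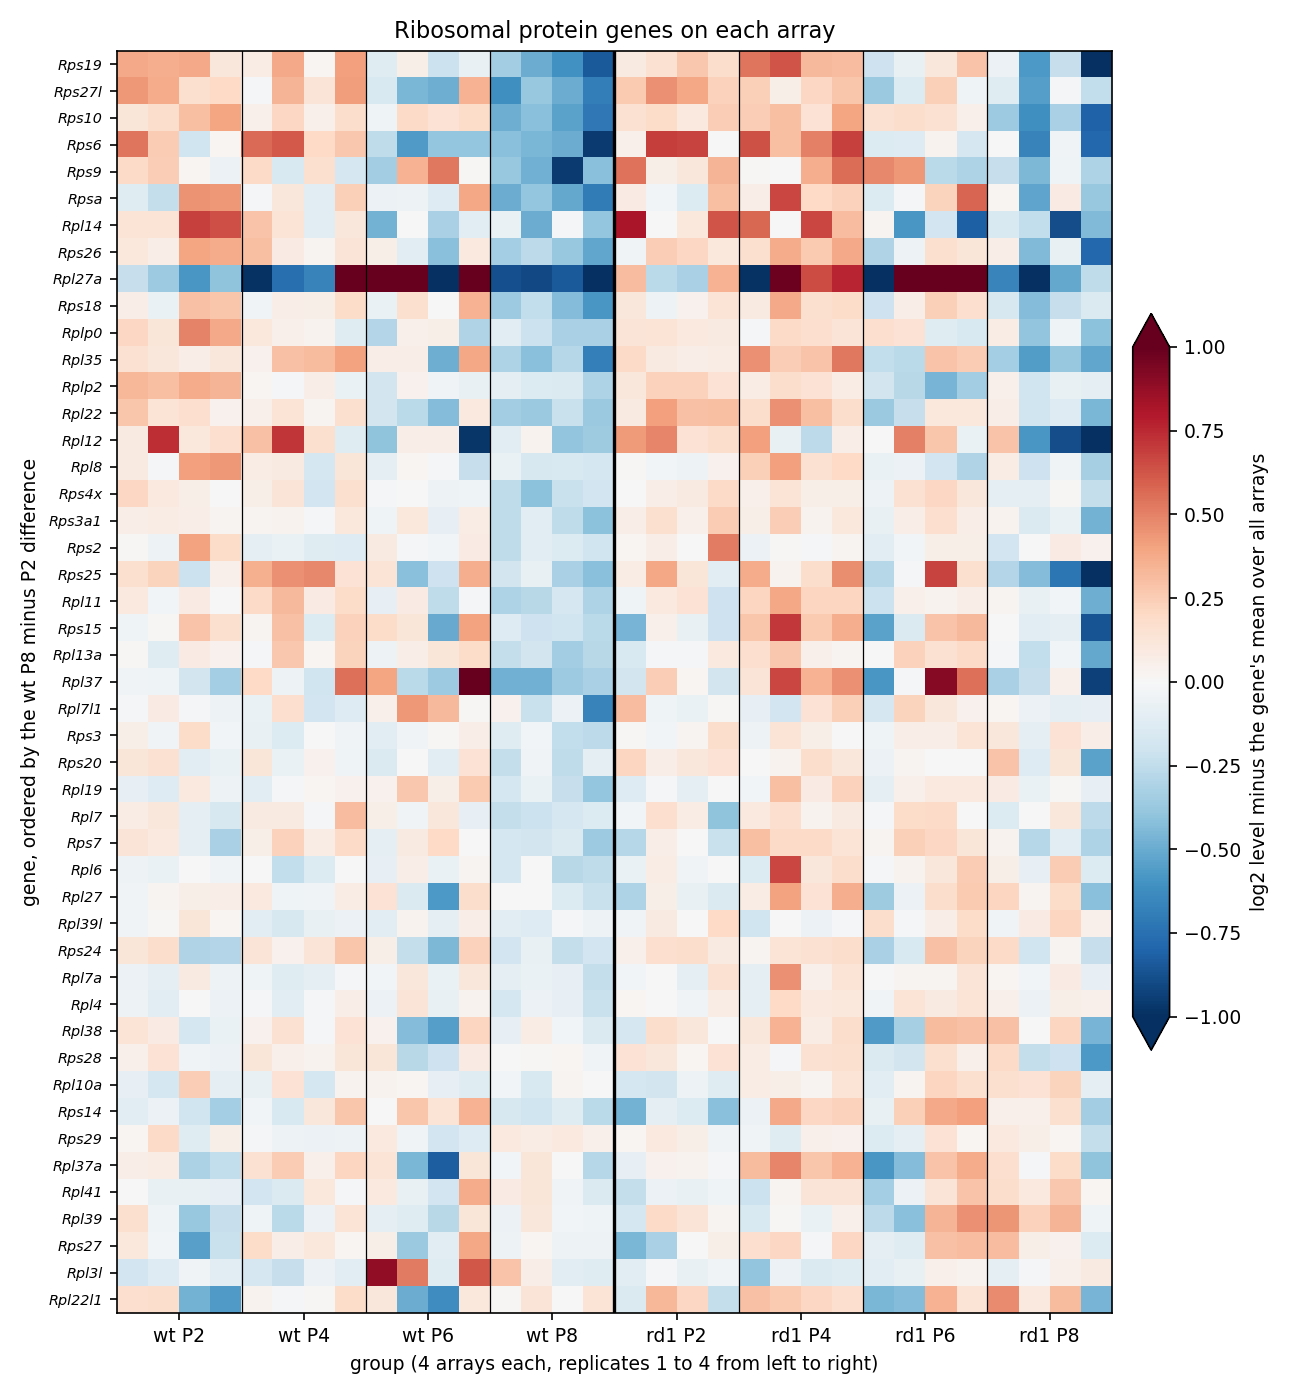
Log2 level of the 47 genes (rows, ordered by the wt P8 minus P2 difference) on each of the 32 arrays (columns, 4 per group), after subtracting each gene's mean over all arrays. Blue is below and red above that mean, and colours end at a difference of 1. The upper rows turn blue at P8 in both genotypes, and Rpl27a departs from every other row at P4 and P6.

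By steps of 2 days, most wt calls lay between P6 and P8, but this order depended on the 18S ribosomal RNA signal. With that signal as a covariate, the P4 to P6 step had 9 calls (8 lower) and the P6 to P8 step 6. Those 6 included Rpl37a and Rpl38, whose wt means rose from P6 to P8 (13.84 to 14.05 and 13.17 to 13.31). Without the covariate, 14 of the 47 genes were lower from P6 to P8 and none higher, against 7.6% of all probe sets lower and 7.97% higher. The step from P2 to P4 gave 1 lower gene, Rplp2 (difference -0.34, standard error 0.06, adjusted p = 0.000446), against 8.5% lower and 8.27% higher. Rplp0 and Rps2 were next by p, with differences of -0.28 and -0.24 that did not pass (adjusted p = 0.0654 and 0.0709). The step from P4 to P6 gave 1 lower gene, Rps6, at 7.81, 7.86, 7.45 and 7.52 and then 6.99, 6.68, 6.86 and 6.86 (difference -0.81, standard error 0.19, adjusted p = 0.00331), and 1 higher gene, the background-level paralog Rpl3l, against 6.78% lower and 5.15% higher.

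Between P6 and P8 in wt the 6 largest falls among called genes were those of Rpl27a (-2.09), Rps9 (-0.70), Rps10 (-0.66), Rpsa (-0.56), Rps18 (-0.52) and Rps19 (-0.48). Rps10 had the smallest adjusted p (5.89e-06), and its wt P6 arrays, at 13.72, 13.96, 13.91 and 13.95, all lay above its P8 arrays. Rpl27a overlapped: it was at 10.69, 9.63, 7.37 and 11.05 at P6 and at 7.67, 7.65, 7.71 and 7.35 at P8. The count of 14 was 7 without wt P6 replicate 4 or without wt P8 replicate 4, and 9 without wt P6 replicate 2.

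In rd1 the steps ran as follows. From P2 to P4, 3 small subunit genes rose, Rps15 (0.58, standard error 0.19, adjusted p = 0.0351), Rps14 (0.47, standard error 0.12, adjusted p = 0.00782) and Rps7 (0.31, standard error 0.10, adjusted p = 0.0253), and none fell, against 8% of probe sets higher and 7.54% lower. No gene was called at this step without the arrays labelled rd1 P2 replicates 1 and 4, which held the lower values of Rps14, 12.78 and 12.83, beside 13.15 and 13.11. With the 18S signal as a covariate this step had 2 genes higher and 3 lower. From P4 to P6, 5 genes fell and none rose, against 4.91% lower and 2.18% higher: Rpl14 (-0.78), Rps6 (-0.63), Rplp2 (-0.44), Rpl8 (-0.41) and Rpl22 (-0.38). Rplp2 was at 14.06, 14.16, 14.13 and 14.06 at P4 and at 13.80, 13.71, 13.52 and 13.64 at P6 (standard error 0.06, adjusted p = 7.08e-05). The count at this step was between 2 and 7 when single arrays were left out.

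From P6 to P8 in rd1, 9 genes fell and 1 rose, against 8.76% of all probe sets lower and 9.56% higher. Among called genes the largest falls were those of Rps25 (-0.78), Rpl12 (-0.72), Rps10 (-0.66), Rps19 (-0.55), Rpl35 (-0.45) and Rpl13a (-0.34). Rpl27a differed by -1.44 without passing (adjusted p = 0.0973). Rps10 was at 13.92, 13.94, 13.92 and 13.82 at P6, above each of its P8 arrays (adjusted p = 3.4e-06). The gene that rose was Rplp2, back to 14.04, 13.79, 13.91 and 13.89 (difference 0.24, standard error 0.06, adjusted p = 0.00771). The count of 10 was 5 without rd1 P6 replicate 3, without rd1 P8 replicate 2 or without rd1 P8 replicate 4, and 6 without rd1 P6 replicate 2 or 4.

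Within the P4 and P6 groups the ribosomal protein genes moved with the 18S ribosomal RNA signal of the array. On wt P6 replicate 3, with an 18S signal of 4.37, 9 of the 36 bright genes lay above their group mean, and on replicate 4, with 9.77, 27 did. On rd1 P6 replicate 1 (18S 4.61) the count was 5, and on replicates 3 and 4 (9.80 and 9.53) it was 31 and 29. In wt P6 replicate 1 the 18S signal was 9.74 and 17 genes lay above the mean, so the 18S signal and the count did not match on every array. Other bright probe sets were not counted in this way, so these counts do not set the family apart. Rpl27a, a large subunit protein read here from a dim probe set, moved furthest. All 10 arrays with an 18S signal above 6.5 had Rpl27a at 9.20 or more, and the other 22 arrays at 8.90 or less.

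**Figure D4:**
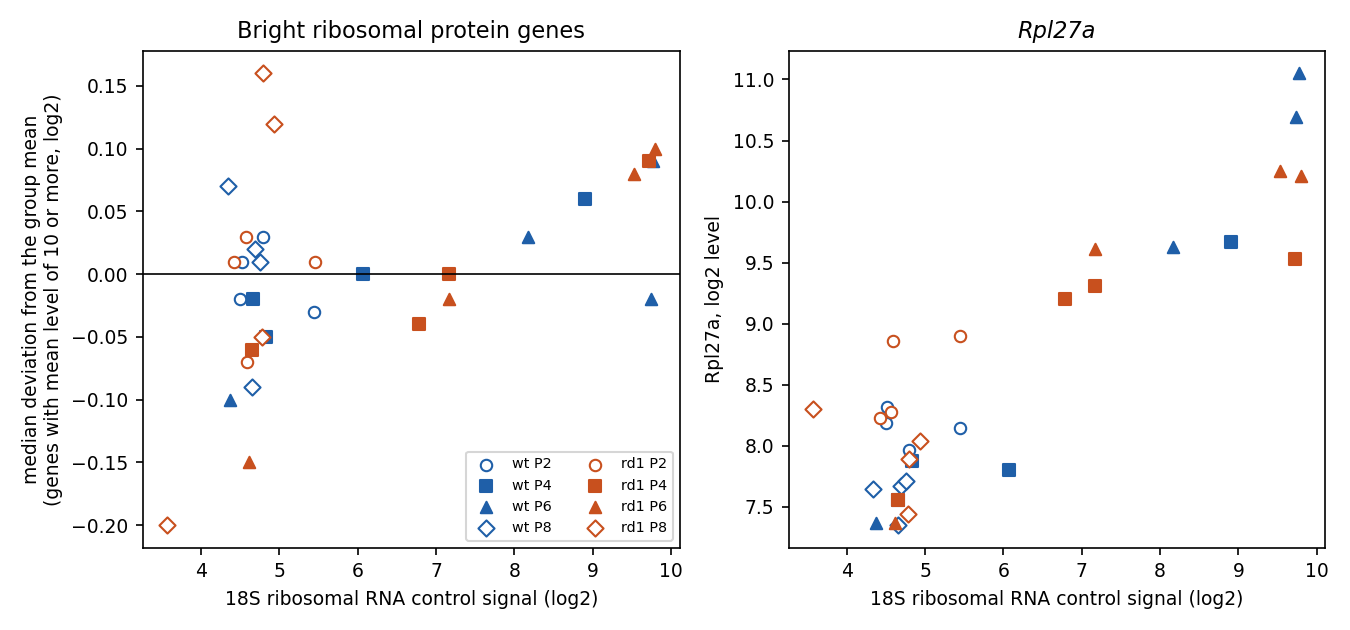
The 18S ribosomal RNA control signal of each of the 32 arrays (log2, horizontal axis) against the median deviation of the 36 bright genes from their group means (left) and against the level of Rpl27a (right). Filled symbols are P4 and P6 arrays and open symbols P2 and P8 arrays, with wt in blue and rd1 in orange. The P4 and P6 arrays spread from 4.37 to 9.80 in 18S signal, while all P2 and P8 arrays lie between 3.57 and 5.45.

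A fit with the 18S signal as a covariate, chosen after the data had been seen, moved the calls of the 2-day steps. It could hardly bear on the change from P2 to P8, since the mean 18S signal was 4.81 and 4.61 at those ages in wt and 4.76 and 4.52 in rd1. For that change this fit called 20 genes in each genotype. The genes it added in rd1, Rpl41 and Rps14, had higher means at P8 than at P2 (13.42 against 13.18 and 13.23 against 12.97). Of the 14 wt genes called from P6 to P8, 4 were called in both fits. In rd1 the P4 to P6 step went from 5 to 9, all lower, and the P6 to P8 step from 10 to 9 (5 lower and 4 higher). The P6 to P8 fall of Rpl27a in wt went from -2.09 to -0.38 (adjusted p = 0.558). Both calls of the wt P4 to P6 step and all 5 of the rd1 P4 to P6 step were among those of this fit, while of the rd1 P6 to P8 calls 4 of 10 were.

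Between genotypes no ribosomal protein gene passed the test at any age. At P2, P4, P6 and P8, 0 of 47 were called, against 0.0398%, 0.00442%, 0.208% and 0.212% of all probe sets. Averaged over the 4 ages the count was also 0, against 0.0442%. At an unadjusted p under 0.05 there were 2, 4, 3 and 7 genes at the 4 ages and 8 for the mean over ages. That is 4.26%, 8.51%, 6.38%, 14.9% and 17% of the 47, against 7.96%, 2.99%, 8.1%, 18.9% and 22.2% of all probe sets. The medians of the rd1 minus wt differences were 0.00, 0.10, 0.07 and 0.11, beside 0.03, 0.03, 0.04 and 0.07 over all probe sets. The 95% interval lay within 1.5-fold in either direction for 43, 39, 42 and 38 of the 47 genes at the 4 ages (91.5%, 83%, 89.4% and 80.9%, against 75.4%, 80.1%, 75% and 73.6% of all probe sets). In the mean over ages it did for 46 (97.9%, against 96.6%). The values at P2 and in the mean over ages rest on labels that Pde6b did not separate.

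**Figure D5:**
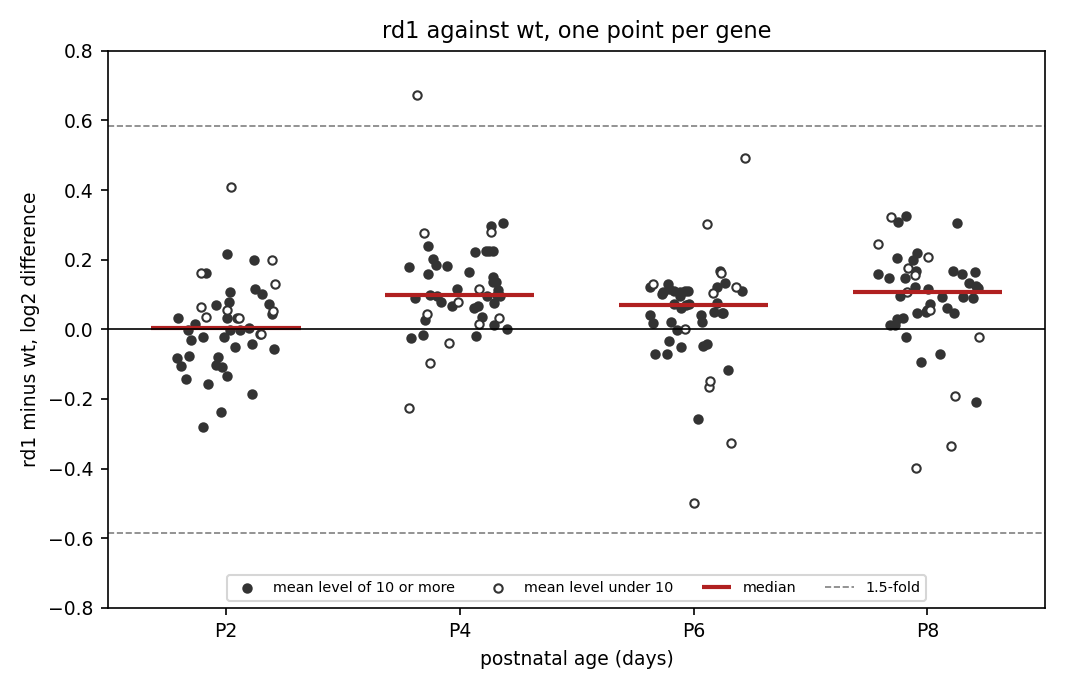
Difference of rd1 from wt at each age (log2, one point per gene, 47 genes), with the median as a red bar and 1.5-fold in either direction as dashed lines. Filled points are genes with a mean level of 10 or more and open points those under 10. The medians run from 0.00 at P2 to 0.11 at P8, and among the 36 genes of high level none reaches 1.5-fold.

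The smallest adjusted p between genotypes was that of Rplp2 at P6. It was at 13.80, 14.03, 13.95 and 13.91 in wt and at 13.80, 13.71, 13.52 and 13.64 in rd1, and the groups did not overlap although the closest pair of arrays differed only beyond the second decimal (difference -0.26, standard error 0.06, adjusted p = 0.0883). Rplp2 was also lower on the arrays labelled rd1 at P2 (difference -0.16, adjusted p = 0.477), and at P4 and P8 its rd1 means were the higher ones, 14.10 against 13.99 and 13.91 against 13.81. Next at P6 came 2 paralogs at background level, Rpl3l (-0.50, adjusted p = 0.0908) and Rpl39l (0.13, adjusted p = 0.608).

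At P2 the genes after Rplp2 by p were Rpl8 (-0.24, standard error 0.10, adjusted p = 0.48) and Rplp0 (-0.19, standard error 0.11, adjusted p = 0.73). At P4 the smallest p values were those of Rpl6 (0.31, standard error 0.11), Rpl7a (0.20, standard error 0.08) and Rpl8 (0.22, standard error 0.10), all with an adjusted p of 1. For 5 genes the P4 arrays of rd1 all lay above those of wt, against 1.99% of probe sets higher and 1.05% lower without overlap, while 0 genes lay below. At P6, 1 gene was higher and 1 lower without overlap, against 2.32% and 2.49%.

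At P8 the smallest p values were those of Rps3 (0.22, standard error 0.07, adjusted p = 0.18), Rpl19 (0.20, standard error 0.08, adjusted p = 0.217) and Rpl4 (0.16, standard error 0.06, adjusted p = 0.217). Rps3, which lines the messenger RNA entry channel, was at 13.35, 13.45, 13.23 and 13.21 in wt and at 13.59, 13.38, 13.62 and 13.54 in rd1, so that 1 rd1 array lay within the wt range. No gene was without overlap at P8, against 10.2% of probe sets higher in rd1 and 2.34% lower. In the mean over ages the leading genes were Rpl4 (0.10, standard error 0.03), Rpl6 (0.16, standard error 0.06) and Rps3 (0.10, standard error 0.04), at the same adjusted p of 0.181.

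The paralogs were set beside their parent genes, and no exact permutation test of a difference in their changes passed 0.05 after adjustment. These tests had little room to pass: the smallest p that the arrays allow, 0.0286, became 0.0571 after adjustment over 8 tests. Rpl22 encodes an RNA-binding protein of the large subunit, and Rpl22l1 is its close paralog. Rpl22 fell in wt from 12.24, 12.10, 12.13 and 12.00 at P2 to 11.61, 11.59, 11.74 and 11.59 at P8 (difference -0.48, standard error 0.12, adjusted p = 0.0012), and in rd1 by 0.45. Rpl22l1 was at 11.69, 11.70, 11.05 and 10.96 on the wt P2 arrays and at 11.54, 11.65, 11.53 and 11.66 at P8 (difference 0.25, standard error 0.20, adjusted p = 0.36). Its P8 arrays lay between the higher pair of P2 arrays (replicates 1 and 2) and the lower pair (replicates 3 and 4). These are the pairs of wt P2 arrays that Rpsa and Pde6b also divided.

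The change of Rpl22l1 from P2 to P8 was above that of Rpl22 by 0.73 in wt and by 0.52 in rd1. In both genotypes every P8 array had a higher Rpl22l1 to Rpl22 ratio than every P2 array (exact two-sided permutation test, p = 0.0286, the smallest that 4 against 4 arrays allow, and 0.0571 after adjustment over 8 such tests). A second probe set of Rpl22 rose in rd1 (0.33) and was at 0.26 in wt, so these values hold only for the brighter probe set of Rpl22.

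Rps27l, a paralog of Rps27 that p53 induces, fell in wt from 12.15, 12.09, 11.88 and 11.92 to 11.11, 11.34, 11.22 and 11.03 (difference -0.83, standard error 0.15, adjusted p = 3.25e-05) and in rd1 by 0.57. All 3 of its probe sets fell in both genotypes. Rps27 itself was read from a probe set whose arrays reached down to 4.58, within the range of the no-signal controls, so no difference from its paralog is given. Its tests still count among the 8. A brighter probe set that also lists Rps27rt was not read by name. The changes of Rpl7l1 and Rpl7 differed by -0.05 in wt and -0.08 in rd1 (exact permutation test, p = 0.886 and 0.629). Rpl39l, known from testis, and Rpl3l, known from muscle, stayed within the background range on every array. Rpl3l had its highest values at wt P6, with 4.22, 3.85, 3.21 and 3.95.

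Several probe sets stood for 23 of the 47 genes. For 13 of these all probe sets of the gene had the same sign from P2 to P8 in wt. None had probe sets called in opposite directions in wt, and in rd1 Rpl22 was the only one. All 4 probe sets of Rpl13a and all 3 of Rps9 fell in wt, as did 5 of the 6 of Rps10 and 5 of the 6 of Rps18. In rd1 this was so for 1 of the 4 of Rpl13a and 2 of the 6 of Rps18. A second probe set of Rps6 was at 0.04 in wt and -0.01 in rd1, and one of Rps4x at 0.08 and 0.07, none of which passed the test. Rpl35 was divided: 4 of its 6 fell in wt, and another was at 0.00. Of the 102 probe sets that list a ribosomal protein gene together with other genes, mostly pseudogenes, 33 fell (32.4%) and 2 rose in wt, with a median of -0.20. In rd1 21 fell (20.6%) and 2 rose, with a median of -0.17. The shares of all probe sets that fell were 18.7% in wt and 16.6% in rd1.

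Other genes of ribosome production are to be read against the 18.7% of all probe sets that were lower in wt and 16.6% in rd1. Fau, which encodes a small subunit protein fused to a ubiquitin-like sequence, fell in wt by 0.50 (adjusted p = 0.00569) and differed by -0.15 in rd1 (adjusted p = 0.471). Of 16 measured genes outside the 47 that are known for a pyrimidine tract, Fau among them, 10 were lower in wt (62.5%) and 6 in rd1 (37.5%), none was higher, and the medians were -0.31 and -0.14. Hnrnpa1, a splicing regulator, fell by 0.70 in wt and 0.83 in rd1, and Npm1, a nucleolar chaperone, by 0.65 and 0.72. Of 54 ribosome biogenesis genes 22 (40.7%) were lower and 3 higher in wt, and 15 (27.8%) lower and 6 higher in rd1. Gar1, a component of the particles that convert uridine to pseudouridine in ribosomal RNA, fell by 1.58 in wt, and Fbl, the methyltransferase fibrillarin, by 1.13. Ncl, nucleolin, fell by 0.89 in rd1.

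Of 12 genes of RNA polymerase I, which transcribes ribosomal RNA, 3 (25%) were lower in each genotype and none higher. Polr1a, its largest subunit, fell by 0.68 in wt and by 0.51 in rd1. Of 33 translation initiation factors 10 (30.3%) were lower in each genotype, with 4 higher in wt and 3 in rd1. Eif3a fell by 0.94 in wt, and Eif4ebp2, which holds back cap-dependent initiation, by 1.86. Of 7 genes listed for translation elongation, the kinase Eef2k at background level among them, 3 were lower in wt and 2 in rd1. They were led by Eef1d (-0.64 and -0.62), which is also counted above among the genes known for a pyrimidine tract. Of 19 regulators of ribosomal protein synthesis 8 (42.1%) were lower and 1 higher in each genotype. The largest values were those of Mycl, a Myc family transcription factor, which fell in both (-2.45 in wt and -2.27 in rd1). Further genes stand in more than 1 of these lists, so the counts are not independent. Among them, Eif4ebp2 is in the initiation and regulator lists, and Npm1 in the tract and biogenesis lists. Ubtf is in the biogenesis and RNA polymerase I lists.

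Mitochondrial ribosomal proteins build the separate ribosome of that organelle. Of 74 genes (47 Mrpl and 27 Mrps) 15 were higher and 5 lower in wt, and 20 higher and 4 lower in rd1, with medians of 0.06 and 0.11. The higher shares, 20.3% and 27%, stand beside 16.9% and 16.4% of all probe sets, and the lower shares, 6.76% and 5.41%, beside 18.7% and 16.6%. Mrpl49 rose from a mean of 9.37 to 10.63 in wt (difference 1.26, standard error 0.12, adjusted p = 5.01e-10) and by 1.52 in rd1. Among the 47 cytosolic genes the only one that rose in either genotype was Rpl10a.

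The make-up of the tissue changed over the same interval. All 23 measured markers of dividing progenitors fell in both genotypes. Their mean level lay between 10.36 and 10.73 on the wt P2 arrays and between 5.79 and 6.14 on the wt P8 arrays, and in rd1 it went from 10.57 to 10.78 down to 5.86 to 6.81. All 17 rod markers rose in wt and 16 in rd1, from a mean of 8.03 to 8.37 at wt P2 to 11.88 to 12.34 at wt P8. Of 11 bipolar cell markers 9 rose and 1 fell in each genotype. Of 8 markers of Mueller glia 5 rose and 2 fell in wt, and 4 rose and 1 fell in rd1. Of 16 markers of amacrine, horizontal and ganglion cells 10 rose and 2 fell in wt, and 8 rose and 3 fell in rd1. The part of these changes in the ribosomal protein result was not tested.

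Markers of tissue outside the neural retina moved with age as well. Of 14 lens crystallins 13 rose in each genotype, with a mean level of 3.73 to 6.00 at wt P2, 5.43 to 9.40 at wt P8 and 7.59 to 11.55 at rd1 P8. Of 10 pigment epithelium markers 7 rose in wt and 5 in rd1, and their mean stayed between 5.21 and 7.52. Of 5 red blood cell markers 1 rose in each genotype, with means of 3.80 to 4.86, and of 8 mesenchymal and scleral markers 1 rose and 2 fell in wt, and 1 rose and 1 fell in rd1. Between genotypes at P6, 6 of the 23 progenitor markers were higher in rd1, with a mean of 7.31 to 7.86 against 6.52 to 6.93 in wt. Lower in rd1 at P6 were 5 of the 11 bipolar cell markers (median difference -0.89) and 1 of the 17 rod markers (median difference -0.47). Of all probe sets 0.128% were higher and 0.0796% lower, and none of the 47 ribosomal protein genes was called. The part of these markers in the values given here was not tested.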

How the data were processed

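RNA from whole retinas was hybridised to 32 one-colour Affymetrix MOE430A arrays, 1 per sample. The authors summarised each probe set by Robust Multichip Average (background correction, quantile normalization, log2), and these deposited log2 values were used as given; the version was not given in the sources used here. A deposited table of the authors' own fold changes and p-values between genotypes was not used. Groups came from the sample labels. Of 22690 probe sets, 64 controls were left out. Probe sets were named from the platform annotation, updated by Entrez ID: 20380 carried 1 symbol, 691 several and 1555 none listed, and a gene was read only from probe sets with 1 symbol.

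A linear model with 8 group means was fitted to all 32 arrays in limma 3.58.1 (R 4.3.3) with an intensity trend (24 residual degrees of freedom before moderation). Within each comparison, the Benjamini-Hochberg adjustment ran over 22626 probe sets, and an adjusted p under 0.05 was a call. The script was tested on simulated data. Single ratios used an exact permutation test over 70 assignments. The genes and lists were chosen with earlier results of these data known. Per comparison, up to 6 called genes with the largest rise and fall were named, or the 3 with the smallest p where fewer than 3 were called, plus paralogs and a fixed set of roles. The number of arrays limits the precision. Alternatives were a separate fit, robust moderation, no trend, array weights, a replicate block, other scalings, a filter on dim probe sets, other choices of probe set, a fold of 1.5 and leaving out arrays. Sequences are from RefSeq (GRCm38.p6).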

Additional observations from a re-analysis of the deposited data

Results flagged for a closer look

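In 9 of 216 groups of 4 arrays tested, 1 array stood further from the other 3 than a Dixon test allows, and chance alone gives about 1 in 20 such groups. Among ribosomal protein genes these arrays were at 12.60 for Rps19 in wt P2 (the lowest), 6.29 for Rps6 in wt P8 (the lowest), 12.57 for Rpsa in wt P6 (the highest), 13.00 for Rpl11 in rd1 P4 (the highest) and 12.40 for Rpl11 in rd1 P6 (the lowest). Among array measures they were the 18S ribosomal RNA signal at 5.45 in rd1 P2 and at 3.57 in rd1 P8, and the Gapdh 3 prime minus 5 prime signal at 0.30 in wt P8 and at 0.49 in rd1 P4. Of these 5 gene values, 4 came from an array at an end of its group in 18S signal. The low Rpl11 in rd1 P6 came from the lowest, and the high Rpl11 in rd1 P4 and Rpsa in wt P6 from the highest. The low Rps19 in wt P2 also came from the highest. Every group of 4 arrays has a highest and a lowest array, so such a match is frequent, and it was not tested.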

How the results depend on the processing

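The fall from P2 to P8 kept its direction and its count within 1.5 times under most settings: 16 to 20 genes in wt and 13 to 18 in rd1 when single arrays were left out, and 0 between genotypes at P2, P4 and P8, in the mean over ages and for the difference of the P2 to P8 changes. Of the called genes, 12 of 20 in wt and 5 of 18 in rd1 were called under every other setting. That count leaves out the setting with a fold of 1.5, which some of these genes, Rpl11 in wt among them, do not reach. Leaving out single arrays gave 0 to 1 at P6 between genotypes (1, Rpl3l, without wt P6 replicate 3), 1 to 4 for wt P4 minus P2 (4 without wt P2 replicate 2), 2 to 4 for wt P6 minus P4 (4 without wt P6 replicate 4), 7 to 15 for wt P8 minus P6, 1 to 4 for rd1 P4 minus P2 (1 without rd1 P2 replicate 1 or 4), 2 to 7 for rd1 P6 minus P4 (2 without rd1 P4 replicate 1 or 3 or rd1 P6 replicate 2) and 5 to 14 for rd1 P8 minus P6.

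Counts that moved by over 1.5 times, whose cause was not tested, were these. A separate fit gave 1 for wt P6 minus P4, 3 for rd1 P6 minus P4, 1 for rd1 P8 minus P6 and 11 for rd1 P8 minus P2. Array weights gave 2 between genotypes at P6 (Rplp2 and Rpl3l) and 2 at P8 (Rps4x and Rpl39l), 15 for wt P6 minus P4, 27 for wt P8 minus P6, 17 for rd1 P6 minus P4 and 21 for rd1 P8 minus P6. Median centring and the mean over a gene's probe sets each gave 3 for rd1 P6 minus P4, a further quantile normalization gave 1 (Rpl3l) between genotypes at P6, and without the 30% dimmest probe sets wt P6 minus P4 gave 1, since Rpl3l was no longer tested. Without rd1 P2 replicates 1 and 4 the counts were 2 for wt P4 minus P2, 0 for rd1 P4 minus P2 and 10 for rd1 P8 minus P2. A fold of 1.5 as well gave 0, 3 and 8 for wt P4 minus P2, P8 minus P6 and P8 minus P2, and 0, 2, 3 and 6 for rd1 P4 minus P2, P6 minus P4, P8 minus P6 and P8 minus P2. Settings chosen after the data had been seen gave, with genes of a mean level of 10 or more, 0 for wt P6 minus P4. With shared probe sets added wt P4 minus P2 gave 6 of 149, and with shared probe sets alone 5 of 102, and rd1 P8 minus P2 23 of 102. With the 18S covariate they gave 1 (Rpl3l) between genotypes at P6, 2 and 5 for P4 minus P2 in wt and rd1, 9 and 9 for P6 minus P4, and 6 for wt P8 minus P6. Rpl35 in wt was at 0.003 with a plain probe set in place of the brightest.

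With a replicate block, wt P4 minus P2 went from 1 to 2 and no other count moved by over 1.5 times (20 in wt and 17 in rd1 for P8 minus P2). Same-numbered samples of the 2 genotypes correlated between -0.42 and 0.61 in their deviations, so the numbers were not taken as pairs.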
